A study of Homo sapiens with 6 samples.

Results

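Small nucleolar RNA host genes are long noncoding RNA genes whose introns, and sometimes exons, carry small nucleolar RNAs (snoRNAs). They were picked by symbol: every gene row named SNHG followed by a number, together with GAS5, ZFAS1, EPB41L4A-AS1 and DANCR. The rule found 28 genes among 58395 gene rows, and 335 other genes held an annotated snoRNA on their own strand. They were measured by strand-specific RNA sequencing after ribosomal RNA depletion in 6 clonal lines of HEK293, an established line of human embryonic kidney origin. In 3 of them (NOCT lines 4, 11 and 12) the cells overexpressed NOCT delta(2-15)-3F, a tagged form of nocturnin without residues 2 to 15. The 3 control lines (GST lines 2, 8 and 9) overexpressed GST-3F, glutathione S-transferase with the same tag. Every line was grown for 3 days before harvest in the same medium. Each line is a single clone, so the effect of the protein and a difference between clones can be told apart only over the 3 clones of a group. The promoter that drives the constructs is not given in the sources used here. Nocturnin is a phosphatase of NADPH and NADP whose gene follows the circadian clock.

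A host transcript is spliced, the excised intron is opened and trimmed, and the snoRNA is left inside a protein complex that protects it. Box C/D snoRNAs guide the methylation of ribosomal RNA and box H/ACA snoRNAs guide its pseudouridylation, while scaRNAs guide the same changes on spliceosomal RNAs. The spliced host is in many cases degraded by nonsense-mediated decay, a cytoplasmic pathway coupled to translation. Several hosts are also known to begin, like mRNAs of ribosomal proteins, with a 5′ terminal run of pyrimidines (TOP), which ties their use by ribosomes and their stability to growth signals.

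The letters around the annotated start sites were read from RefSeq on GRCh38.p14, where 24 of the 28 host genes matched by symbol. SNHG6, SNHG9, SNHG15 and SNHG25 have no entry in that table. A run of at least 5 letters C or T that began with C exactly at the start site was sought on the gene's own strand. It was found in 6 of the 24 (25%), against 4.04% of all 27305 windows. Of a list of genes known for TOP starts, mainly of translation, 7 of 9 held it. With up to 5 bases allowed on either side, 11 of the 24 (45.8%) held such a run, against 21.1% of all windows. Each window printed holds the 25 bases before the start site and the 25 bases from it onward, with the run in capitals. Shown are the 5 tested hosts with the run at the start and SNHG16, the most abundant host.
SNHG4, chr5:139274076-139274125, plus strand: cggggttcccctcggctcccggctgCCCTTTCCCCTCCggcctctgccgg
ZFAS1, chr20:49278617-49278666, plus strand: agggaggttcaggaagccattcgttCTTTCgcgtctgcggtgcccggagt
SNHG5, chr6:85678709-85678758, minus strand: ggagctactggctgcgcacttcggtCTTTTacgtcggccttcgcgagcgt
SNHG19, chr16:2155334-2155383, minus strand: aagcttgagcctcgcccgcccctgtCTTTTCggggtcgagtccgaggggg
SNHG12, chr1:28581849-28581898, minus strand: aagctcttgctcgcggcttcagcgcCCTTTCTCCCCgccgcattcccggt
SNHG16, chr17:76557739-76557788, plus strand: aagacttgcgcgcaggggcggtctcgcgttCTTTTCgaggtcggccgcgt
In SNHG16 the run began 5 bases after the annotated start. The GAS5 window held no such run, which says only that these letters are not in that window. For GAS5 the RefSeq start (position 173869045 of chromosome 1, minus strand) differs from the upstream end of the gene in GENCODE release 29 (173868882). Of the windows printed, those of ZFAS1 (RefSeq start 49278642, GENCODE 49278178), SNHG12 (28581873 and 28583132) and SNHG5 (85678733 and 85678748) also lie away from the GENCODE end. The runs of these genes are at the RefSeq start alone. A run of this kind is a match of letters and was not measured as a start of transcription in these cells.

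Small RNAs had rows of their own in the count tables, and 14 of those inside host genes had enough counts to be tested. Their sequences were read from GENCODE release 29 on GRCh38, on the strand of the host. In names beginning with SNORD, capitals mark the letters TGATGA (the C box) within the first 20 bases and CTGA (the D box) within the last 15. In the others they mark ACA within the last 10. Both C/D motifs were present in 4 of the 5 SNORD sequences, against 0.0366% of all RefSeq windows read at the same distances from their ends, and ACA in 7 of the 9 others, against 8.01% of those windows. SNORA74D and SNORA71B lacked it at the ends that GENCODE gives. RefSeq ends SNORA74D later (139276323, against 139276320) and places SNORA71B at 38425195-38425330, inside the longer row read here. The absence therefore holds for these rows alone. The names SNORD and SNORA follow the class of the RNA, and the windows lie around start sites. The shares of motifs are therefore no test. Printed are the 4 SNORD sequences that hold both motifs and, of the others that hold ACA, the 2 with the most counts.
SNORD12B, intron of ZFAS1, chr20:49280319-49280409, plus strand: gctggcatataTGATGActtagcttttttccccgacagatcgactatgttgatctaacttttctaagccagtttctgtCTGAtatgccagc
SNORD12C, intron of ZFAS1, chr20:49278940-49279028, plus strand: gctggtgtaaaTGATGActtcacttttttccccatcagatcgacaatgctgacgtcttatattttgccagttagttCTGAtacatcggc
SNORD1B, intron of SNHG16, chr17:76561109-76561192, plus strand: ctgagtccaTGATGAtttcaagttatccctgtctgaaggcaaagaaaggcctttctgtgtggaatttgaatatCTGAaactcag
SNORD104, intron of SNHG25, chr17:64146083-64146152, plus strand: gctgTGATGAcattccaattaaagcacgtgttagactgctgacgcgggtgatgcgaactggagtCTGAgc
SNORA73B, intron of SNHG3, chr1:28508559-28508762, plus strand: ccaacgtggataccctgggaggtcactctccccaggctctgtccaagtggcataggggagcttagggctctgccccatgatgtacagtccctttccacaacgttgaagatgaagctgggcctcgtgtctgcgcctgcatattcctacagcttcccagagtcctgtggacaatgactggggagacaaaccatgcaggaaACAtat
SCARNA13, intron of SNHG10, chr14:95533355-95533629, minus strand: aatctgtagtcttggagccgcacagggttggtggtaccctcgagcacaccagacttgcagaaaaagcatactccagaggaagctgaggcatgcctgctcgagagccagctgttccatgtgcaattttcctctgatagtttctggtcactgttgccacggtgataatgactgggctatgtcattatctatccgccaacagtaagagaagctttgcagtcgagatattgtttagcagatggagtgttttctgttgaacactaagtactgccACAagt

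The libraries held between 19729745 and 24422406 gene counts. Reads of the GST construct numbered 46 to 88 in the GST lines and 0 or 1 in the NOCT lines, and those of the NOCT construct 46 to 82 in the NOCT lines and 3 to 7 in the GST lines, which matches the labels. Summed levels of 6 HEK293 markers, of which VIM made up most, lay between 883 and 1196 CPM (counts scaled to library size) in the GST lines and between 1031 and 1869 in the NOCT lines. Those of 6 markers of other cell types lay between 10.1 and 11.5 CPM and between 7.87 and 23.8 CPM, of which COL1A1 made up most. The markers of leukocytes (PTPRC) and of red cells (HBA1) did not exceed 0.21 and 0.05 CPM in any line.

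Levels between genes were compared in TPM (a level corrected for the length of the gene and for depth) as the authors deposited them. SNHG16, which carries the box C/D snoRNAs SNORD1A, SNORD1B and SNORD1C, was the most abundant host, with a mean of 138.5 TPM over the 6 lines and a range of 120.1 to 161 TPM. SNHG6, SNHG1, GAS5 and SNHG8 followed with means of 64.4, 60.7, 59.5 and 57.2 TPM. Their ranges over the lines overlapped, and differences among them within lines were not tested. Of their exonic bases, 7.14%, 15.3%, 0% and 14.2% are shared with other genes on the strand, where reads are set aside. SNHG3 (46.8 TPM), SNHG5 (43.4 TPM) and SNHG19 (40.4 TPM) came next. DANCR, known as a noncoding RNA that holds back differentiation, had a mean of 32.1 TPM. ZFAS1, the antisense partner of ZNFX1, had 18.2 TPM and EPB41L4A-AS1 had 16.1 TPM.

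At the low end of the group, 6 genes did not pass the filter on low counts. SNHG27 had no count in any line, which allows up to 3 counts per library. SNHG28 was listed at 0 too, but 100% of its exonic bases are shared with other genes on its strand, where a second gene named SNHG28 overlaps it, so its 0 says nothing about its level. SNHG14, the transcript over the imprinted Prader-Willi region that carries the SNORD115 and SNORD116 arrays, had 1 count in GST line 2, 1 in NOCT line 4 and 0 elsewhere, and its 84 snoRNA rows had 1 count in all. The gene on its other strand, UBE3A, had 18349 counts. SNRPN, which overlaps SNHG14 on the same strand, had 0. Reads over bases shared by genes on a strand are set aside, and the shared bases of SNRPN were not counted here. Its 0 therefore says nothing about its level. SNHG25 (3.89 TPM), SNHG21 (0.90 TPM) and SNHG18 (0.43 TPM) were detected with at most 13 counts in a library and were not tested, and 48.6% and 72.9% of the exonic bases of SNHG25 and SNHG21 are shared on their strand. SNHG22 was tested at a mean of 0.51 TPM. The other 22 host genes were tested, and no count or median over them stands for all 28. Lengths behind the TPM values of SNHG4, SNHG12 and SNHG20 (2170, 3382 and 3121 bases) differ from the exonic lengths in GENCODE release 29 (4469, 4266 and 6087 bases), so the TPM of these genes depends on the annotation. Their counts under another annotation were not tested.

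**Figure D1:**
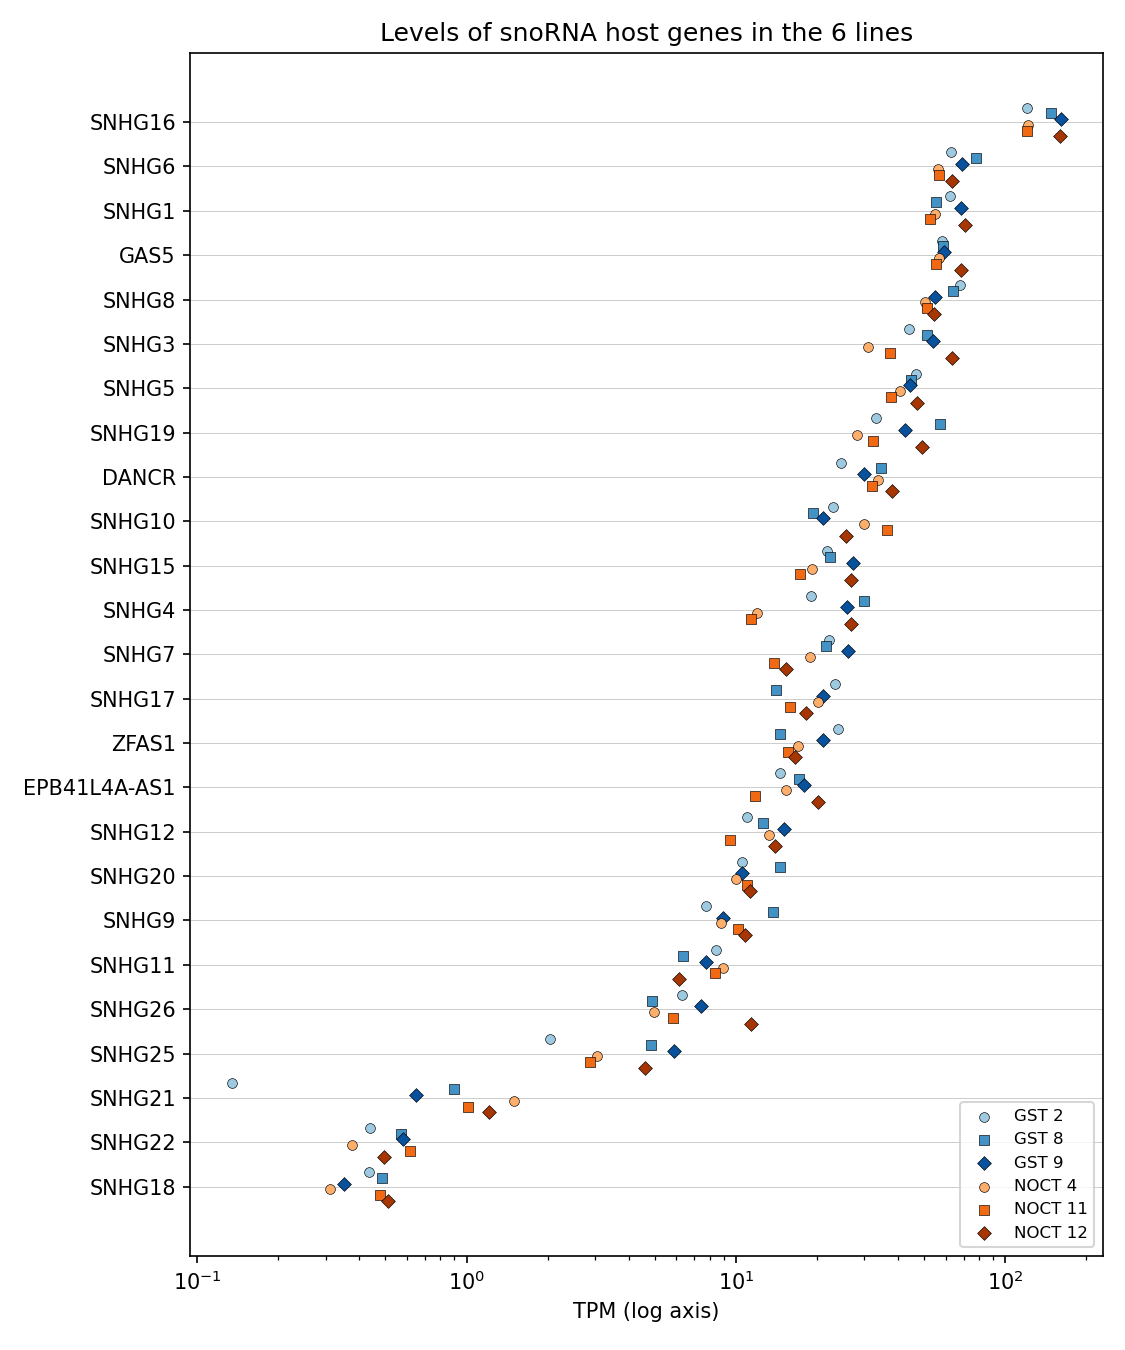
TPM of the 25 host genes that had a count in every line, 1 row per gene, ordered by the mean over the 6 lines, on a log axis; blue symbols are GST lines and orange symbols NOCT lines, set slightly apart in height. SNHG16 stands above the rest, between 120.1 and 161 TPM, and for SNHG3 and SNHG4 the circle and square of NOCT lines 4 and 11 lie left of the other 4 lines.

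The host genes varied together between the NOCT lines. They were low in lines 4 and 11 and not in line 12. On the log2(CPM + 0.5) scale, the median deviation of the 22 hosts from each gene's own mean over the 6 lines was -0.22, -0.24 and 0.16 in NOCT lines 4, 11 and 12, and 0.05, 0.08 and 0.19 in GST lines 2, 8 and 9. Over all genes tested, the same medians lay between -0.01 and 0.01. In NOCT lines 4 and 11, 19 of 22 hosts were below their mean, against 48.6% and 48.4% of all genes, and in NOCT line 12 it was 5 of 22, against 48.2%. NOCT line 4 had the lowest value of the 6 lines for 11 of 22 hosts (21.1% of all genes) and NOCT line 11 for 6 (15.3%), while NOCT line 12 had the highest value for 6 (18.4%). The summed CPM of all 28 hosts was 659 and 666 in NOCT lines 4 and 11, 914 in NOCT line 12, and 813, 810.0 and 912 in GST lines 2, 8 and 9.

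The NOCT construct had 74, 46 and 82 counts (not scaled for depth) in NOCT lines 4, 11 and 12, and its part in the order of the lines was not tested. Of the 6 HEK293 markers, VIM, KRT8 and KRT18 were higher in NOCT lines 4 and 11 than in the other 4 lines. VIM, which encodes the intermediate filament protein vimentin, had 1425 and 1400 CPM in NOCT lines 4 and 11, 779 CPM in NOCT line 12 and 678, 946 and 911 CPM in the GST lines. KRT8, a keratin, had 252, 192 and 111 CPM in NOCT lines 4, 11 and 12 and 80.0 to 90.5 CPM in the GST lines. The other markers went different ways. PAX2, a transcription factor of the developing kidney, was low in every NOCT line (0.75 to 1.30 CPM, against 3.85 to 5.69 CPM in the GST lines), and on the log2 scale the difference was -2.13 ± 0.30 (edgeR adjusted p = 0.0567). NEFL did not follow the order, and NEFM reached 6.87 CPM in NOCT line 12 and at most 0.35 CPM elsewhere. Among the markers of other cell types, COL1A1 had 23.1, 21.1 and 7.42 CPM in NOCT lines 4, 11 and 12 and 9.55 to 11.0 CPM in the GST lines. The part of these marker differences in the levels of the hosts was not tested. Local changes along the chromosomes were measured as the median deviation of up to 50 neighbouring genes on each side. With this neighbour level taken from each gene, the medians of the hosts were -0.23, -0.18 and 0.21 in NOCT lines 4, 11 and 12, and 0.06, -0.00 and 0.21 in the GST lines.

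**Figure D2:**
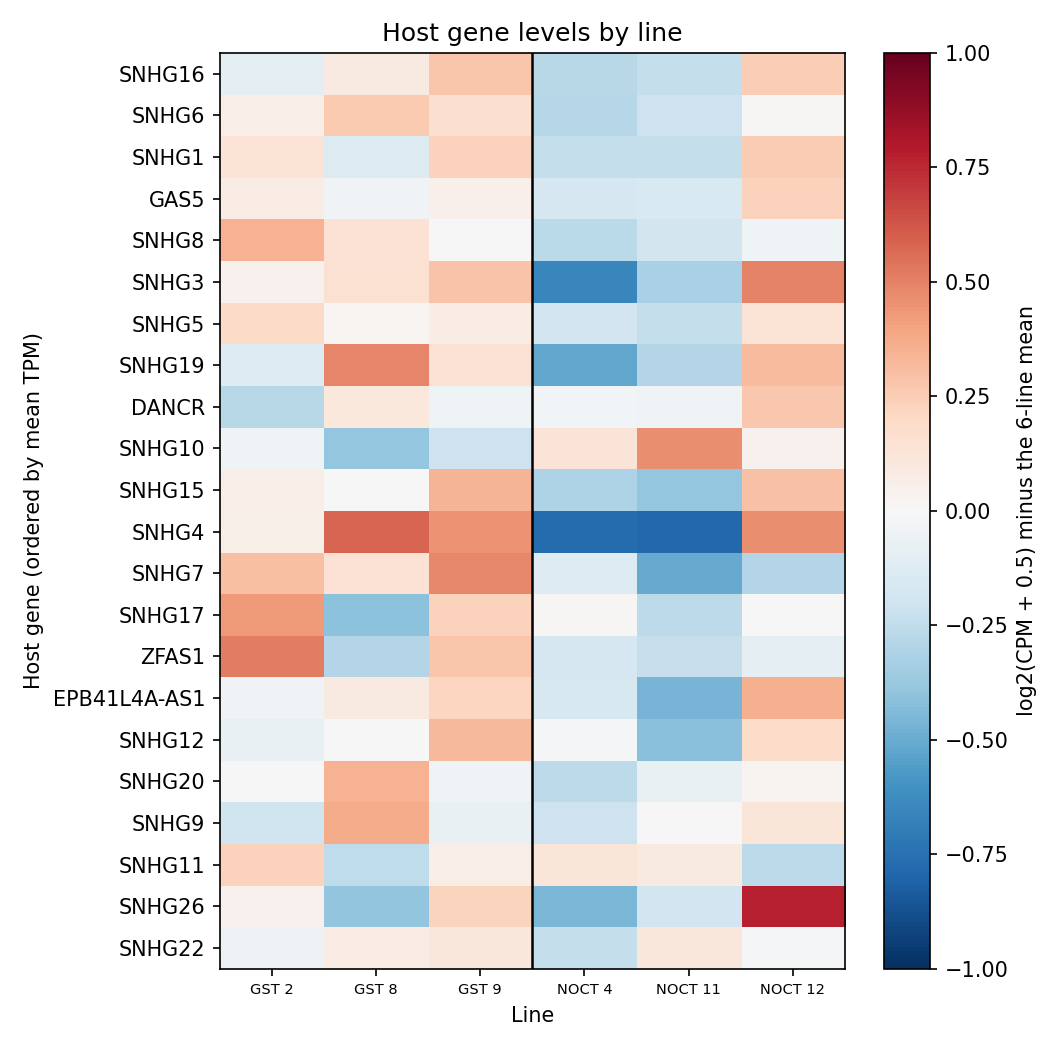
Deviation of each of the 22 tested host genes (rows, ordered by mean TPM) from its own mean over the 6 lines (columns), as log2(CPM + 0.5); red is above the mean and blue below it. The columns of NOCT lines 4 and 11 are blue for 19 of 22 genes, whereas that of NOCT line 12 is blue for 5.

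In SNHG3 and SNHG4, NOCT lines 4 and 11 were the lowest of the 6 lines. SNHG3 carries SNORA73A and SNORA73B, the U17 RNAs that act in the early cleavage of ribosomal RNA precursors, and lies at chr1:28505980-28510892, where it overlaps RCC1 on the same strand. Its levels were 66.5, 72.0 and 79.0 CPM in GST lines 2, 8 and 9 and 40.9, 51.5 and 91.6 CPM in NOCT lines 4, 11 and 12. NOCT lines 4 and 11 lay below every GST line and NOCT line 12 above every one, so the groups overlapped. SNHG4, which carries SNORA74A and SNORA74D and shares its strand with MATR3 at chr5:139274102-139284899, had 15.2, 22.1 and 20.1 CPM in the GST lines and 8.32, 8.24 and 20.3 CPM in the NOCT lines. In SNHG4, line 12 stood with the GST lines. With all 6 lines the log2 fold changes of NOCT over GST lines were -0.24 ± 0.26 (SE) for SNHG3 and -0.64 ± 0.35 for SNHG4, with edgeR adjusted p = 0.719 and 0.456. Without NOCT line 12, SNHG3 fell by 0.65 ± 0.13 (edgeR adjusted p = 0.0301) and SNHG4 fell by 1.21 ± 0.19 (edgeR adjusted p = 0.0126) on the log2 scale. In that fit 5.42% of all genes passed an adjusted p of 0.05. Line 12 is the NOCT line that stood apart in both genes, so these p-values are no separate test of the difference. Reads over exons shared with another gene cannot be assigned to either, and 11.0% of the exonic bases of SNHG3 and 14.0% of those of SNHG4 are shared on their strand, where the share of SNHG3 includes SNORA73A as well as RCC1. RCC1 itself had a log2 fold change of -0.25 ± 0.12 with all lines (edgeR adjusted p = 0.389), and the MATR3 rows had -0.92 ± 0.38 and -0.46 ± 0.20.

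In the comparison of NOCT with GST lines over all 6 lines, no host gene passed an adjusted p of 0.05 in edgeR's quasi-likelihood test (0 of 22). Over all 17261 genes tested, 10 did (0.0579%), and the smallest adjusted p among the hosts was 0.158. By an unadjusted p under 0.05 it was 4 of 22 hosts (18.2%), against 13.9% of all genes. Of these, 3 were lower in the NOCT lines (6.52% of all genes) and 1 was higher (7.38% of all genes). The groups did not overlap in CPM for the same 4 genes of 22 (18.2%), against 20% of all genes. Both shares are near the background. The log2 fold change was below 0 for 19 of 22 hosts (86.4%), against 49.3% of all genes, with a median of -0.19 (range -0.64 to 0.44), against 0.00 for all genes, and a median SE of 0.20. The split depended on the scaling, and the median of all genes moved with it. With libraries scaled by their spike-in totals, 15 of 22 were below 0, and the host median was -0.04, against 0.15 for all genes. With limma on log2(TPM + 1) or log2(TPM + 0.1) it was 16 of 22. The host medians there were -0.09 and -0.10, against 0.07 and 0.08 for all genes. The share of all genes below 0 was not counted in these fits.

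Leaving out 1 line at a time changed these counts. Without NOCT line 12, 12 of 22 hosts had an unadjusted p under 0.05 (54.5%, against 23.2% of all genes), 11 of them lower (11.4% of all genes), the median was -0.33, and 2 passed an adjusted p of 0.05 (5.42% of all genes), SNHG3 and SNHG4. The count at an unadjusted p under 0.05 was 1 without NOCT line 11 (10.6% of all genes), 2 without NOCT line 4 (10.1%), 3 without GST line 2 (13.2%), 3 without GST line 8 (10.4%) and 2 without GST line 9 (8.31%). In these 5 fits no host passed an adjusted p of 0.05, as against 0.00567%, 0.0738%, 0.0281%, 0.0338% and 0% of all genes, and the medians of the hosts lay between -0.12 and -0.24. Of the 22 hosts, SNHG6, SNHG7, SNHG8 and SNHG10 alone had a log2 fold change that stayed within 1.5 times its value whichever line was left out.

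**Figure D3:**
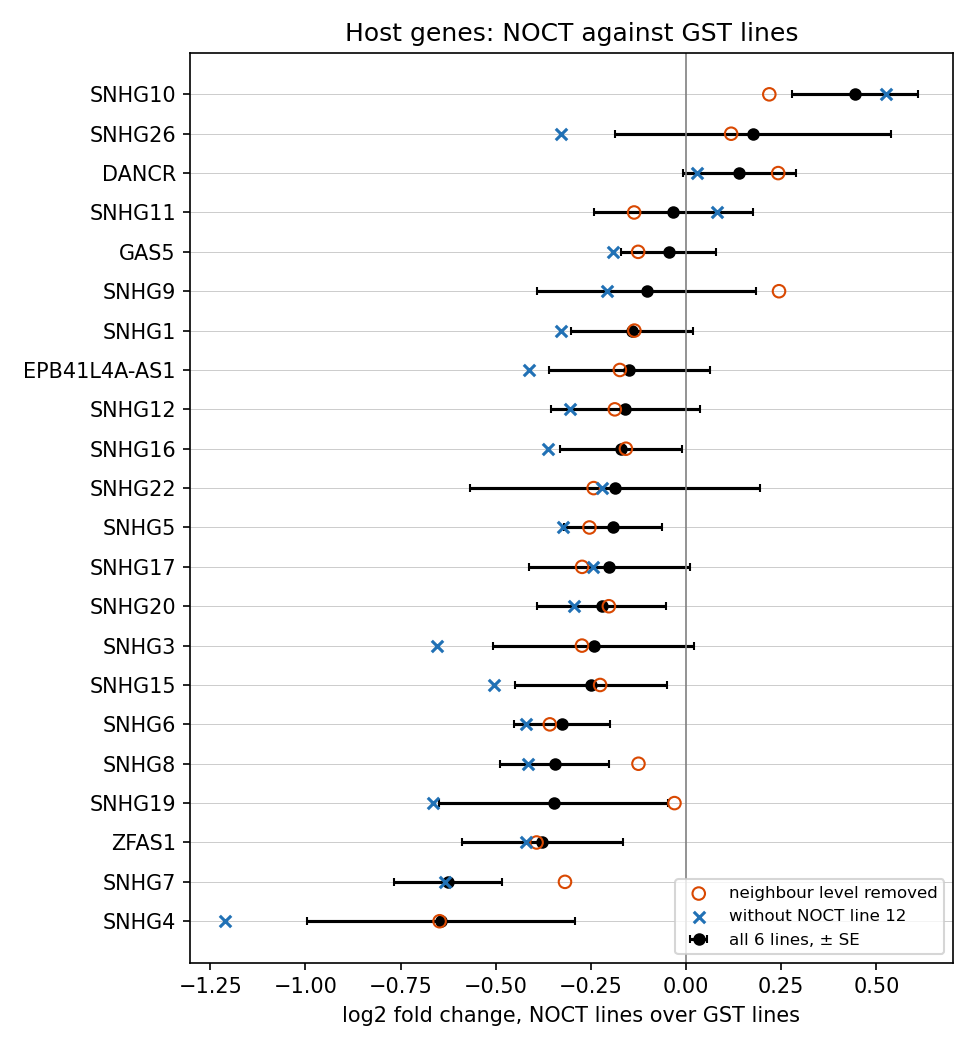
Log2 fold changes of the 22 tested host genes, NOCT lines over GST lines, from edgeR: black points with SE bars for all 6 lines, open circles after the level of neighbouring genes was removed, crosses without NOCT line 12. Of the black points, 19 lie left of 0, and the cross of SNHG4 lies farthest left, at -1.21.

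Among hosts of box H/ACA RNAs, SNHG7 had the smallest p-value of all 22. It carries SNORA17A and SNORA17B and lies at chr9:136721366-136728184 on the minus strand. Its levels were 35.8, 32.2 and 40.6 CPM in GST lines 2, 8 and 9 and 26.4, 20.3 and 23.6 CPM in NOCT lines 4, 11 and 12, so every NOCT line was below every GST line, line 12 included. The log2 fold change was -0.63 ± 0.14 (SE), with an edgeR adjusted p of 0.158. DESeq2 gave -0.63 with an adjusted p of 0.00947, and SNHG7 was the only 1 of the 21 hosts with an adjusted p that DESeq2 called (3.41% of all genes). In the authors' deposited table it had a log2 fold change of -0.56 with an adjusted p of 0.0138, likewise the only call among 21 hosts (2.87% of all genes). The neighbour level of SNHG7 differed by -0.31 between NOCT and GST lines on the log2 scale, and was lowest in NOCT line 12 (-0.35). FAM69B, which overlaps SNHG7 on the other strand, had 68.0, 67.0 and 75.5 CPM in the GST lines and 46.8, 40.9 and 44.5 CPM in the NOCT lines, so the groups did not overlap, and its log2 fold change was -0.67 ± 0.10 (edgeR adjusted p = 0.066). With the neighbour level removed, the log2 fold change of SNHG7 was -0.32 (edgeR adjusted p = 0.336).

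SNHG8, host of SNORA24, had 23.4, 20.2 and 18.3 CPM in the GST lines and 15.0, 15.9 and 17.7 CPM in the NOCT lines. The groups did not overlap, by a narrow margin between GST line 9 and NOCT line 12. The fold change on the log2 scale was -0.35 ± 0.14 (edgeR adjusted p = 0.337), and -0.12 with the neighbour level removed, where GST line 2 had a neighbour level of 0.36. SNHG10, host of SCARNA13, was 1 of the 3 hosts with a fold change above 0. It had 16.6, 12.9 and 14.7 CPM in the GST lines and 18.8, 23.7 and 17.6 CPM in the NOCT lines, so that all NOCT lines were above all GST lines. On the log2 scale the fold change was 0.44 ± 0.16 (edgeR adjusted p = 0.288) and 0.22 with the neighbour level removed, and its neighbours were lowest in GST line 8 (-0.30). GLRX5, on the other strand of SNHG10, had 0.16 ± 0.11. DANCR, host of SNORA26, had 20.8, 27.2 and 24.5 CPM in the GST lines and 24.8, 24.6 and 30.5 CPM in the NOCT lines. Its log2 fold change was 0.14 ± 0.15 (edgeR adjusted p = 0.708), which came to 0.04 without GST line 2, 0.22 without GST line 8 and 0.03 without NOCT line 12. EPB41L4A-AS1, host of SNORA13, had 18.1, 19.7 and 21.6 CPM against 16.5, 13.3 and 23.8 CPM, again with NOCT line 12 above and NOCT line 11 below every GST line. The fold change on the log2 scale was -0.15 ± 0.21 (edgeR adjusted p = 0.788), and 0.02 without NOCT line 11.

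Among hosts of box C/D RNAs, SNHG6 was the third gene whose NOCT lines all lay below its GST lines. It carries SNORD87 and lies on chromosome 8. Its levels were 29.05, 33.3 and 31.1 CPM in GST lines 2, 8 and 9 and 22.7, 23.9 and 28.0 CPM in NOCT lines 4, 11 and 12, where line 12 came closest to the GST lines. The log2 fold change was -0.33 ± 0.12 (edgeR adjusted p = 0.301). Its neighbours hardly differed between the groups (0.03), and with their level removed the value was -0.36 (edgeR adjusted p = 0.201), the smallest adjusted p of the hosts in that fit, in which 0 of 22 passed 0.05 (0.203% of all genes) and 2 of 22 had an unadjusted p under 0.05 (14.5% of all genes).

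GAS5, known as a gene whose RNA builds up when growth stops, was the steadiest of the 22, with a coefficient of variation of 10.6% over the 6 lines. It had 78.7, 73.0 and 77.5 CPM in the GST lines and 66.7, 67.5 and 88.0 CPM in the NOCT lines. NOCT lines 4 and 11 were the lowest of the 6 and NOCT line 12 the highest. The log2 fold change was -0.05 ± 0.12 (edgeR adjusted p = 0.898), and its sign turned with the spike-in totals (0.10), with limma on either log2 TPM scale (0.03) and without NOCT line 4 (0.02) or 11 (0.01). SNHG1, the U22 host gene, whose introns give the snoRNAs while its spliced RNA has no known protein, had 86.8, 71.4 and 92.3 CPM in the GST lines and 66.6, 66.7 and 93.8 CPM in the NOCT lines. On the log2 scale the fold change was -0.14 ± 0.16 (edgeR adjusted p = 0.729), with the same order of NOCT lines, and it was 0.0023 with the spike-in totals. SNHG5, host of SNORD50A and SNORD50B, had 48.2, 42.8 and 44.4 CPM in the GST lines and 36.7, 35.5 and 46.4 CPM in the NOCT lines. Its log2 fold change was -0.19 ± 0.13 (edgeR adjusted p = 0.542).

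SNHG16 had 240.0, 272 and 310.4 CPM in the GST lines and 211, 217 and 303 CPM in the NOCT lines. The fold change on the log2 scale was -0.17 ± 0.16 (edgeR adjusted p = 0.671). NOCT lines 4 and 11 were thus below every GST line and line 12 was not. ZFAS1, host of SNORD12, SNORD12B and SNORD12C, departed from this pattern in CPM, with the neighbour level not removed. It had 20.03, 11.3 and 17.0 CPM in the GST lines and 12.3, 11.8 and 13.1 CPM in the NOCT lines, so its lowest level was in GST line 8 and its NOCT lines were alike. The log2 fold change was -0.38 ± 0.21 (edgeR adjusted p = 0.468), and it was -0.19 without GST line 2 and -0.59 without GST line 8. ZNFX1, transcribed from the other strand, had 0.05 ± 0.17. Genes around ZFAS1, SNHG11 and SNHG17 on chromosome 20 were below their mean in NOCT line 12 (-0.30, -0.28 and -0.28) and above it in NOCT line 4 (0.19, 0.23 and 0.24), and the part of this in the levels of these hosts was not tested. SNHG19, host of SNORD60, had 4.22, 6.72 and 5.20 CPM against 3.10, 3.72 and 5.92 CPM. On the log2 scale the fold change was -0.35 ± 0.30 (edgeR adjusted p = 0.638), and it came to -0.03 with the neighbour level removed. SNHG26, host of SNORD93, had 6.17, 4.41 and 7.02 CPM against 4.20, 5.15 and 10.6 CPM. Line 12 carried its log2 fold change of 0.18 ± 0.36 (edgeR adjusted p = 0.860), which was -0.33 without that line and -0.0043 without GST line 8. The remaining tested hosts (SNHG9, SNHG11, SNHG12, SNHG15, SNHG17, SNHG20 and SNHG22) had log2 fold changes between -0.25 and -0.03, and their smallest edgeR adjusted p was 0.596. The sign turned for SNHG9 without GST line 8 (0.13), for SNHG11 without GST line 2 or NOCT line 12 (0.08 in both) and for SNHG22 without NOCT line 4 (0.0060).

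The snoRNAs inside the hosts were next compared with where they lie. The count tables held 137 rows for snoRNAs or scaRNAs inside 26 of the host genes, 84 of them in SNHG14. Outside SNHG14, 17 of 22 rows that lie wholly in an intron had a count (77.3%), with 3676 counts in all. Of 31 rows that overlap an exon of the host, 1 had a count (3.23%), a single count of SNORD30 in SNHG1. In the 335 other host genes the shares were 222 of 332 rows (66.9%) in introns and 10 of 132 (7.58%) over exons. By default the counter HTSeq sets reads that overlap 2 genes on 1 strand aside as ambiguous, and such reads made up 2.02% to 2.41% here, so for SNORA17A in SNHG7, SNORA24 in SNHG8, SNORD87 in SNHG6 and the SNHG1 snoRNAs that have a row, a count of 0 says nothing about their level. In GAS5 the case is the reverse: RefSeq lists 11 snoRNA genes in it, 11 without a row of their own in the count tables, and 9 of them overlap a GAS5 exon, so that reads from them would count as GAS5. The same holds for 2 of the 9 snoRNA genes in SNHG1 and 1 of the 2 in SNHG5 (SNORD50A).

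**Figure D4:**
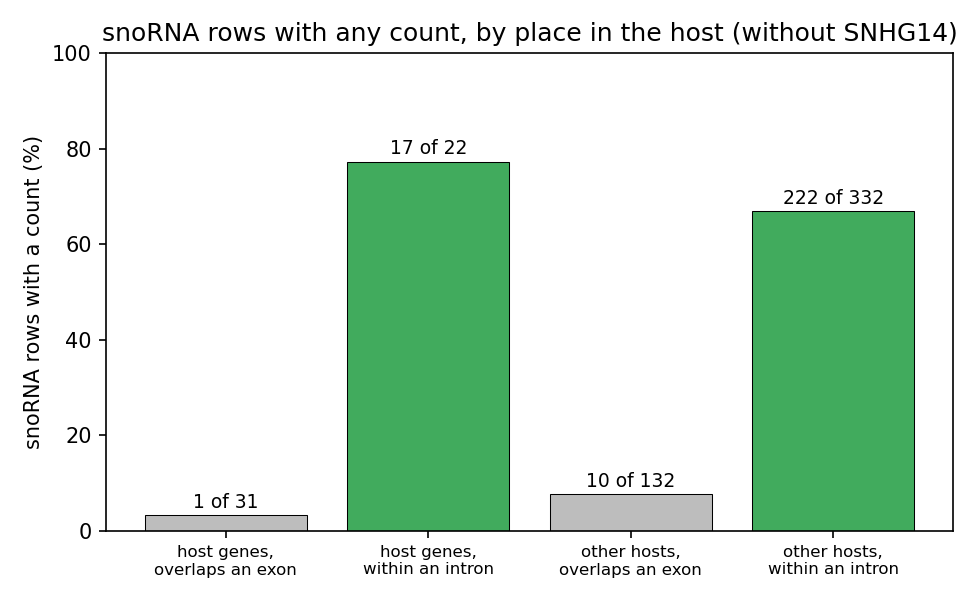
Share of annotated snoRNA rows with at least 1 count over the 6 libraries (bars, in percent, with the numbers of rows above them), for rows that overlap a host exon (grey) and rows wholly within an intron (green), in the SNHG group without SNHG14 and in the 335 other hosts. The share is 3.23% over exons and 77.3% within introns in the SNHG group.

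Of the 14 snoRNAs tested, 12 had a log2 fold change below 0 (49.3% of all genes) and 2 above it (SCARNA13 and SNORD99), with a median of -0.43, against 0.00 for all genes. No one of them passed an adjusted p of 0.05 in edgeR (smallest 0.443) or DESeq2, none had an unadjusted p under 0.05 in edgeR (13.9% of all genes), and in all of them the groups overlapped, while they did not in 20% of all genes. A count over a snoRNA may come from the snoRNA, from its precursor or from the unspliced host, which these counts cannot tell apart. SCARNA13, which guides changes on spliceosomal RNA, had the most counts: 190, 173 and 180 in GST lines 2, 8 and 9 and 365, 230 and 188 in NOCT lines 4, 11 and 12. Its log2 fold change was 0.34 ± 0.20 (edgeR adjusted p = 0.490), and like its host SNHG10 it was above 0, although SCARNA13 was highest in NOCT line 4 and SNHG10 in NOCT line 11. SNORA73B in SNHG3 had 72, 92 and 99 counts in the GST lines and 58, 34 and 98 in the NOCT lines. It was low in NOCT lines 4 and 11 and not in line 12, the order also seen in its host. The fold change on the log2 scale was -0.58 ± 0.40. Without NOCT line 12, SNORA73B fell by 1.18 (edgeR adjusted p = 0.0486), in the fit in which 5.42% of all genes passed 0.05. Line 12 is the NOCT line that stood apart, so this p-value is no separate test.

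SNORA74D in SNHG4 had 50, 78 and 72 counts in the GST lines and 52, 32 and 62 in the NOCT lines, with a log2 fold change of -0.58 ± 0.32. It was low in NOCT line 11 above all, after scaling for depth (2.04, 1.43 and 3.11 CPM in NOCT lines 4, 11 and 12 against 2.64 to 3.62 CPM in the GST lines). SNORD12B in ZFAS1 had 52, 31 and 42 counts in the GST lines and 13, 27 and 35 in the NOCT lines, and the log2 fold change was -0.86 ± 0.46 (edgeR adjusted p = 0.443). Its lowest level was in NOCT line 4, where ZFAS1 itself was not the lowest. SNORD12C, in another intron of ZFAS1, had 14, 6 and 10 counts against 4, 4 and 12. SNORD1B in SNHG16 had 11, 6 and 13 counts against 4, 3 and 15. Both had their lowest levels in NOCT lines 4 and 11, at few counts. In SNHG17 the 3 SNORA71 RNAs with the most counts all had their lowest level in NOCT line 11. SNORA71B had 69, 49 and 59 counts in the GST lines and 57, 27 and 63 in the NOCT lines. SNORA71C had 38, 23 and 40 against 49, 21 and 40 counts, and SNORA71A had 22, 23 and 40 against 35, 8 and 27 counts. They belong to 1 family, and reads that align to more than 1 place were not assigned. SNORD104 in SNHG25 had 19 to 29 counts in every line and a log2 fold change of -0.07, while SNHG25 itself had 4 to 12.

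**Figure D5:**
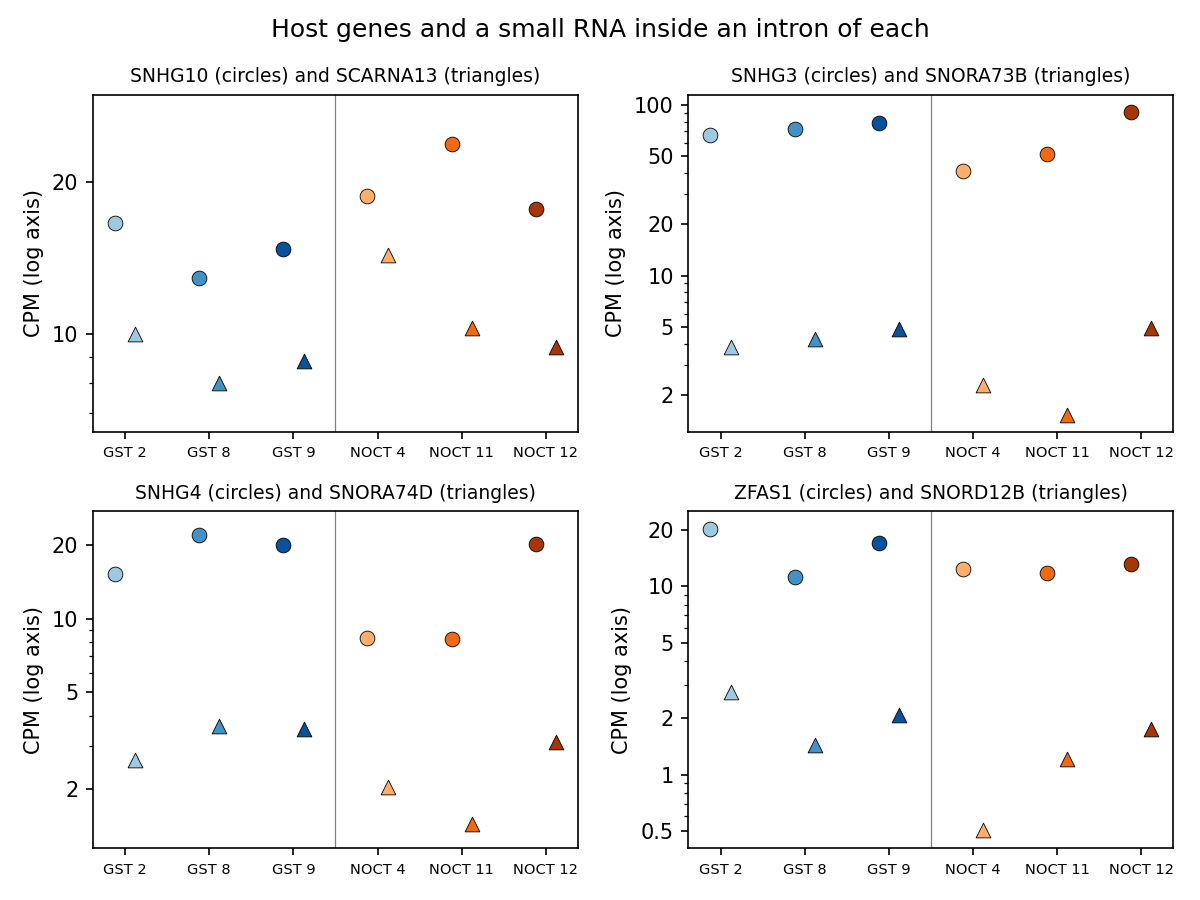
CPM (log axis) in each line of 4 host genes (circles) and of a small RNA in an intron of each (triangles); the grey line divides GST from NOCT lines. For SNHG3 and SNORA73B both symbols are low in NOCT lines 4 and 11 and not in NOCT line 12, whereas SNORD12B is lowest in NOCT line 4 without a like drop of ZFAS1.

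The proteins that act on host transcripts and snoRNAs were described from lists by role, over all 6 lines. Fold changes of single genes in these lists are those before the neighbour level was removed. The part of local changes along the chromosomes in them was not tested. In none of these lists did a gene pass an adjusted p of 0.05 in edgeR, and counts at an unadjusted p under 0.05 are to be read against the shares of all genes given above (6.52% lower and 7.38% higher). The 4 core proteins of box C/D particles (median log2 fold change 0.12) and the 4 of H/ACA particles (median -0.09) had none; SNU13, which binds the box C/D fold, had 0.20 ± 0.10 and GAR1, an H/ACA core protein, -0.38 ± 0.17. The 11 assembly factors (median 0.09, with RUVBL2 at 0.31) and the 6 genes of intron debranching and trimming (median 0.05, with the exonuclease XRN2 at 0.32) had none either. Of 15 genes of nonsense-mediated decay, 2 were lower and 1 higher at an unadjusted p under 0.05, with a median of -0.00; RNPS1, a protein of the exon junction complex, had -0.38 ± 0.12 and the kinase SMG1 -0.27. Of 10 regulators of TOP mRNAs, 3 were lower and 0 higher, with a median of -0.11; MLST8, a subunit of the mTOR complexes, had -0.62 ± 0.21, the TOP-binding protein LARP1 -0.20 and the mTOR target EIF4EBP1 -0.31.

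TOP mRNAs, mainly of the translation machinery, showed the order of the NOCT lines seen in the hosts. Of 13 tested, 2 were lower and 0 higher at an unadjusted p under 0.05. They were NAP1L1 (-0.33 ± 0.10), a nucleosome assembly protein, and EEF1B2 (-0.29 ± 0.11), a translation elongation factor. The median deviation of the 13 was -0.10, -0.21 and 0.18 in NOCT lines 4, 11 and 12 and 0.04, 0.01 and 0.06 in the GST lines. Protein-coding genes that hold a snoRNA, many of which make ribosomal or nucleolar proteins, had a flatter profile: over 236 tested, the medians were -0.03, -0.05 and 0.06 in NOCT lines 4, 11 and 12 and 0.02, 0.01 and 0.03 in the GST lines. Of these, 21 were lower and 12 higher at an unadjusted p under 0.05, and the median log2 fold change was -0.04; IARS, an isoleucyl-tRNA synthetase, had the smallest p-value, at -0.55 ± 0.12 (edgeR adjusted p = 0.155). The 12 tested long noncoding hosts that the symbol rule did not pick had a median of 0.01, with 1 lower, LRRC75A-AS1, at -0.35 ± 0.14. LRRC75A-AS1 carries snoRNAs in the same way and had 157, 158 and 166 CPM in the GST lines and 114, 108 and 155 CPM in the NOCT lines. Whether the SNHG group differs from these lists was not tested.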

How the data were processed

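Strand-specific, ribosome-depleted libraries of 6 clonal HEK293 lines were used. Per the submitters' processing notes the tools were cutadapt 1.8.1, Trimmomatic 0.33, STAR 2.5.2b, HTSeq 0.6.1p1 and DESeq2 1.16.1 on GRCh38; the annotation release is not given in the sources used here. The deposited tables hold raw read counts per gene, 1 table per line. The authors also deposited TPM values and a comparison with log2 fold changes, p-values and adjusted p-values, which is quoted only where named; its mean normalised signal and its Wald score per gene, deposited by the authors in the same table, are not printed. Reads without a feature (26.5% to 30.6%), ambiguous reads and reads aligned more than once (13.3% to 14.6%), spike-ins and construct rows stayed out of library sizes and tests. No per-sample column was left unused.

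Host genes were taken from the symbols of the TPM table and joined by Ensembl identifier. Places, exons and snoRNAs came from GENCODE release 29, which matched 58275 of 58395 genes; the lengths implied by the TPM values were within 1% of its lengths for 96.9% of 10420 genes with over 1000 counts. A snoRNA was assigned to a host when it lay wholly inside it on the same strand.

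Counts were tested with edgeR 4.0.16 in R 4.3.3 (filterByExpr, TMM factors, quasi-likelihood test, Benjamini-Hochberg adjustment over all 17261 genes). SE is the log2 fold change divided by the square root of F. CPM are TMM-scaled. The script was tested on simulated data. The p-values measure the spread between 3 clones a group; an exact two-sided permutation test of 3 against 3 could not go below 0.1 and was not used. Alternatives were DESeq2 1.42.0, RLE factors, spike-in totals, no filter or 10 counts in every library, a robust fit, limma 3.58.1 on log2(TPM + 1) and log2(TPM + 0.1), an offset for the median of up to 50 neighbours a side (those of 1 CPM or more on average), and leaving out each line.

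Host genes named with values in every line were GAS5, ZFAS1, EPB41L4A-AS1, DANCR and SNHG1, the 8 hosts of highest mean TPM, those with an unadjusted p under 0.05, and the 3 highest and 3 lowest fold changes with a mean of at least 1 CPM. The 8 snoRNAs with most counts were also named, and at most 3 genes of each other list by p-value, mostly by fold change alone. SNORD12C, SNORD1B, SNORD30 and SNORD99 were named outside that rule after their values were seen, as were UBE3A, SNRPN and the markers VIM, NEFL, NEFM, COL1A1, PTPRC and HBA1. The members, lists and rules were chosen with earlier results of these data known.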

Additional observations from a re-analysis of the deposited data

How the results depend on the processing

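Of 225 values of the 15 named host genes under 15 alternatives, 212 kept their sign and their side of an adjusted p of 0.05, 4 passed it and 9 changed sign. The median of the host genes stayed below 0 in every alternative run (-0.33 to -0.12 when a line was left out, -0.04 with spike-in totals, -0.09 with log2(TPM + 1) and -0.10 with log2(TPM + 0.1)).
The number of host genes with an adjusted p under 0.05 was 0 in the chosen fit, 1 without a filter and 1 with DESeq2, and 0 to 2 when a line was left out; the number with an unadjusted p under 0.05 was 4, 2 with spike-in totals, 2 with the neighbour level removed and 1 to 12 when a line was left out. Over all genes the number with an adjusted p under 0.05 was 10, 22 with spike-in totals, 888 without a filter, 6 with 10 counts in every library, 508 with DESeq2, 35 with the neighbour level removed and 0 to 970 when a line was left out.
The calls were SNHG7 without a filter (-0.63, adjusted p = 0.0121 in edgeR) and with DESeq2, and SNHG3, SNHG4 and SNORA73B without NOCT line 12. The cause was not tested.
Signs turned for values near 0. With spike-in totals SNHG1 was 0.0023, GAS5 0.099, SNORA71C 0.095 and SNORD104 0.075. With log2(TPM + 1) GAS5 was 0.029, SNORA71C 0.017 and SNORD104 0.0082, and with log2(TPM + 0.1) they were 0.030, 0.016 and 0.0083. When a line was left out, GAS5 ranged from -0.19 to 0.019, EPB41L4A-AS1 from -0.41 to 0.020, SNHG26 from -0.33 to 0.42, SNORA71C from -0.30 to 0.22 and SNORD104 from -0.31 to 0.098.
No paired analysis was possible because the GST and NOCT lines share no line number. Low counts kept SNHG14, SNHG18, SNHG21, SNHG25, SNHG27 and SNHG28 out of the test, where overlap with other genes on the strand bears on SNHG21, SNHG25 and SNHG28 at any depth. Depth limits SNHG9 and SNHG22, with 30 to 56 and 8 to 12 counts a library.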
